A study of Mus musculus with 48 samples.

Results

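Stellate cell and fibroblast markers were followed in the liver RNA of mice that ate high-fat diets with a low or a high ratio of protein to carbohydrate (P/C). The markers are 10 genes chosen by symbol: Lrat, Reln, Ecm1, Colec11, Dcn, Lum, Pdgfrb, Timp1, Des and Acta2. All 18 probe sets that the platform annotation gives to these genes were used, out of 45037 probe sets and 18193 genes measured. The rule used gene symbols alone, but the genes were chosen with earlier results of these data known.

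All mice were male C57BL/6J animals that had first spent 10-wk on the low P/C version of the feed (L-P/C-HF), and those with the poorest glucose tolerance were kept. They then either stayed on L-P/C-HF or were moved to the high P/C diet (H-P/C-HF), in which protein replaced part of the carbohydrate at an equal share of fat. Livers were taken after 2-d or 4-wk, which gave 4 groups of 12 mice with 1 array per mouse: L-P/C-HF 2-d, H-P/C-HF 2-d, L-P/C-HF 4-wk and H-P/C-HF 4-wk. Array B25 of the H-P/C-HF 2-d group, an outlier in the quality tests of the study, was left out. That left 47 mice, with 11 in that group. By the brightest probe sets, the level on B25 was below that of the other 11 mice for Dcn (10.53), Ecm1 (9.60), Colec11 (9.45) and Pdgfrb (6.43) and within their range for the other members. The 4-wk mice were older, were killed on other days and had undergone a second glucose tolerance test, so that duration cannot be told apart from age and day of death. There was no group on a diet low in fat, and all mice shared the obesity-inducing feeding.

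Levels are RMA values on a log2 scale, in which a difference of 1 is a 2-fold change of signal. The median signal ran from 6.73 to 6.91 across arrays, and precision is limited by how many arrays each group has. The 12 hepatocyte markers had a mean level between 12.95 and 13.37 in every mouse, against a median of 6.79 over all probe sets. A probe set was said to rise or fall where its Benjamini-Hochberg adjusted p, from 1 limma fit of the 4 groups over all probe sets, was under 0.05.

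Hepatic stellate cells lie between the hepatocytes and the sinusoidal endothelium and store vitamin A as retinyl esters in lipid droplets. In chronic injury they can turn into contractile, matrix-producing myofibroblasts, which involves signalling through the PDGF and TGF-beta receptors. Portal fibroblasts and vascular smooth muscle are the other mesenchymal cells of the liver and share several of these genes. In whole liver RNA, a change in the number of such cells and a change in RNA per cell cannot be told apart.

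The members fall into several roles. Lrat encodes the enzyme that esterifies retinol for storage. Reln (reelin), Ecm1 (extracellular matrix protein 1) and Colec11 (a collectin of the lectin complement pathway) are secreted proteins that quiescent stellate cells make. Dcn (decorin) and Lum (lumican) are small leucine-rich proteoglycans that bind collagen fibrils. Pdgfrb is the beta receptor for PDGF and Timp1 an inhibitor of matrix metalloproteinases. Des (desmin) is an intermediate filament protein and Acta2 the smooth muscle actin of myofibroblasts and vessel walls.

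The RefSeq promoter table of mouse build GRCm38.p6 held 7 of the 10 members, and 4 are shown because their start there is also the outer end of the gene. They pair a retinoid gene and a secreted protein gene that rose with duration, Lrat and Reln, with Des and Timp1, which did not pass the test. Each line gives the 100 bases before the start, 5′ to 3′ on the strand of the gene, and capitals mark GC boxes (GGGCGG, searched on both strands, so that CCGCCC is the same motif). The Lrat window lies at chr3:82903975-82904074 (minus strand), that of Reln at chr5:22344706-22344805 (minus strand), that of Des at chr1:75360192-75360291 (plus strand) and that of Timp1 at chrX:20870066-20870165 (plus strand).
Lrat: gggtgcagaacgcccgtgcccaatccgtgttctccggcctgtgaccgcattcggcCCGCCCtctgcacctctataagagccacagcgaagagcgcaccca
Reln: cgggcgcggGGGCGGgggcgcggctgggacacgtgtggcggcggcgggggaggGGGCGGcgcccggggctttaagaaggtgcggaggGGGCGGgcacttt
Des: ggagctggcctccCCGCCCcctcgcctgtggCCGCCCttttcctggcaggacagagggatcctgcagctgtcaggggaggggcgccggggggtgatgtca
Timp1: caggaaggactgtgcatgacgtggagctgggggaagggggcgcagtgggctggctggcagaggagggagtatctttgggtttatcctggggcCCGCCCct
Of 32851 promoters in the table, 24.7% held a GC box in the same 100 bases. All 4 members shown held at least 1, with 1 in Lrat, 3 in Reln, 2 in Des and 1 in Timp1, so that this motif did not separate those that rose from those that were not called. Neither TATAAA (5.56% of promoters) nor TGANTCA, the AP-1 motif (2.73%), was found in these 4 windows on either strand.

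The study asked how the P/C ratio of a high-fat diet acts on the liver, and none of the markers answered to it at the threshold. At 2-d, 0 of 18 member probe sets were called between the diets, where 0.0133% of all probe sets were called in either direction. At 4-wk 0 of 18 were called as well, and there 0% of all probe sets were. At an unadjusted p under 0.05, 1 member probe set was lower at 2-d, where 3.52% of all probe sets passed in either direction, and 0 members passed at 4-wk, where 2.76% did. Ordinary one-way ANOVA at the unadjusted threshold of the methods, 0.001, gave 0 members at either duration, with 0.0688% and 0.0711% of all probe sets passing. The study applied that threshold to p-values from its Global Error Assessment, which was not run here. These counts can therefore not be set against its own.

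The brightest probe set of each gene showed diet differences (high P/C less low P/C, log2) between -0.16 and 0.15 at 2-d and between -0.15 and 0.01 at 4-wk. For Dcn the difference was -0.05 (95% confidence interval -0.23 to 0.14) at 2-d and -0.01 (-0.19 to 0.17) at 4-wk. For Lrat it was -0.03 (-0.26 to 0.19) at 2-d and -0.11 (-0.33 to 0.11) at 4-wk. The Acta2 difference was 0.06 (-0.14 to 0.25) at 2-d and -0.06 (-0.25 to 0.13) at 4-wk. A missed threshold does not show that the diets had equal levels.

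Pdgfrb had the smallest p among the members in both diet comparisons. Its lowest, median and highest levels at 2-d were 6.48, 6.85 and 7.21 in L-P/C-HF mice and 6.49, 6.71 and 7.08 in H-P/C-HF mice. At 4-wk they were 6.80, 7.0 and 7.26 in L-P/C-HF mice and 6.38, 6.88 and 7.12 in H-P/C-HF mice. The ranges overlapped at both durations, and the median of L-P/C-HF mice was above 10 of 11 H-P/C-HF mice at 2-d and 10 of 12 at 4-wk. The difference was -0.16 at 2-d (SE 0.08, unadjusted p = 0.0481 and adjusted p = 1 by limma) and -0.15 at 4-wk (SE 0.08, unadjusted p = 0.0522 and adjusted p = 0.999). The other Pdgfrb probe set gave -0.12 (SE 0.15) and 0.07 (SE 0.15).

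No gene of the other lists was called by diet in the limma fit either. The study used another test, at a p of 0.001. It named C1qa, C1qb, C1qc and Cfd in a pathway that differed by diet at 4-wk, and Ass1 in one that differed at 2-d. Among the targets of regulators it named Col3a1 at 2-d and Csf1r, Ass1, Acta1 and some of those complement genes at 4-wk. In the limma fit, 11 of 12 Kupffer cell markers were lower on H-P/C-HF at 4-wk (median difference -0.33), 5 of them at an unadjusted p under 0.05. Of all 18193 genes, 10865 were lower in that comparison (median difference -0.02), 393 of them at an unadjusted p under 0.05. The lists, members included, held 169 measured entries. An unadjusted p under 0.05 was met by 3.52% of all probe sets at 2-d and by 2.76% at 4-wk. The list genes picked for the smallest diet p, up to 3 from each list, included 6 that passed this threshold at 2-d. These were Cps1 (0.23, p = 0.0013), Tat (0.34, p = 0.0089), Rdh5 (0.23, p = 0.0183), Msln (-0.19, p = 0.0348), Pnpla2 (0.20, p = 0.0358) and Col3a1 (-0.27, p = 0.0465). At 4-wk Omd (-0.39, p = 0.000834), Marco (-0.62, p = 0.00189), Adgre1 (-0.38, p = 0.00473), Tnnt3 (-0.35, p = 0.0131), Timd4 (-0.41, p = 0.0149) and Ehd3 (-0.17, p = 0.0461) did so. The others were Cygb, Hgf, Rgs5, Smad7, Tgfb3, Tgfbr2, P4ha1, Pcolce, Rdh10, Aspn, Ogn, Gas6, Cd34, Mfap4, Smtn, Mylk, Myh11, Lrrn4, Wt1, Fga, Fcgr2b, Pecam1, Krt19, Krt7, Cftr, Cidea, Retn, Car3, Acta1 and Mylpf, with differences between -0.37 and 0.16.

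The diet effect at 4-wk minus that at 2-d was not called for any of the 18 probe sets, and 0% of all probe sets were called. At an unadjusted p under 0.05 the count was 0 of 18 against 1.63% of all. Des had the lowest unadjusted p, with a difference of -0.28 (95% confidence interval -0.61 to 0.05, adjusted p = 1 by limma).

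**Figure D1:**
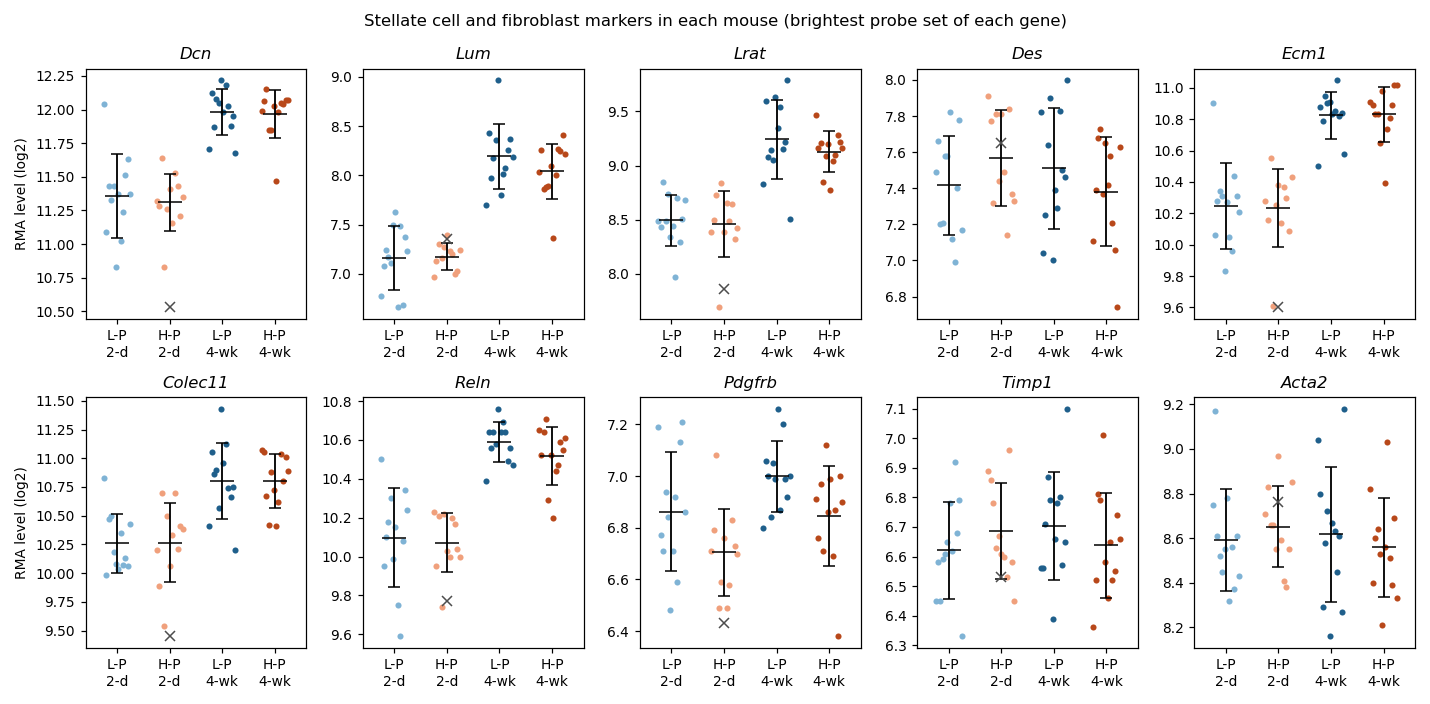
RMA level (log2) of the brightest probe set of each marker in every mouse, by group; horizontal bars are means, error bars 1 SD, and the cross is array B25, which was left out. The 4-wk mice sit higher than the 2-d mice in Dcn, Lum, Lrat, Ecm1, Colec11 and Reln, while the 2 diets lie side by side at each duration.

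Duration went with higher levels of 6 of the markers. Between 2-d and 4-wk, 8 of 18 member probe sets rose in L-P/C-HF mice, where 5.39% of all probe sets rose, and 8 of 18 rose in H-P/C-HF mice, where 4.71% did. No member probe set fell in either diet. They stand for 6 of the 10 genes, Lrat, Reln, Ecm1, Colec11, Dcn and Lum, in both diets, and the 2 comparisons share no mice. By their brightest probe sets the 10 members had a median difference of 0.52 in L-P/C-HF and 0.49 in H-P/C-HF mice, against 0.01 and -0.02 over all genes.

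Lrat, the retinol-esterifying enzyme, had lowest, median and highest levels of 7.97, 8.49 and 8.85 at 2-d and 8.51, 9.19 and 9.79 at 4-wk in L-P/C-HF mice. In H-P/C-HF mice they were 7.69, 8.49 and 8.84 at 2-d and 8.77, 9.16 and 9.47 at 4-wk. Every 4-wk mouse was above the 2-d median of its diet, and the groups overlapped at their edges. The 4-wk minus 2-d difference was 0.75 (SE 0.11, 1.68-fold, adjusted p = 4.34e-06 by limma) in L-P/C-HF and 0.67 (SE 0.11, 1.59-fold, adjusted p = 5.88e-05) in H-P/C-HF mice. The dimmer Lrat probe set also rose, by 0.40 (SE 0.08) and 0.42 (SE 0.08).

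Reln, the secreted glycoprotein reelin, ran from 9.59 over a median of 10.12 to 10.50 at 2-d and from 10.39 over 10.61 to 10.76 at 4-wk in L-P/C-HF mice. The H-P/C-HF mice ran from 9.74 over 10.04 to 10.23 and from 10.20 over 10.54 to 10.71. Here too each 4-wk mouse exceeded the 2-d median, with a narrow overlap in both diets. Reln rose by 0.49 (SE 0.07, 1.41-fold, adjusted p = 3.59e-06 by limma) and by 0.44 (SE 0.07, 1.36-fold, adjusted p = 4.35e-05). Its dimmer probe set differed by -0.04 (SE 0.05) and 0.02 (SE 0.05) and was not called.

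Ecm1 levels in L-P/C-HF mice spanned 9.83 to 10.90 at 2-d (median 10.27) and 10.50 to 11.05 at 4-wk (median 10.84). In H-P/C-HF mice they spanned 9.61 to 10.55 (median 10.28) and 10.39 to 11.02 (median 10.86). The overlap in L-P/C-HF mice included the highest 2-d mouse, array A01, which lay above the 4-wk median. The rise was 0.58 (SE 0.09, 1.49-fold, adjusted p = 5.97e-06 by limma) and 0.60 (SE 0.09, 1.51-fold, adjusted p = 8.27e-06).

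Colec11, the collectin, has a pair of probe sets that both rose. The brighter one had a lowest, median and highest level of 9.98, 10.16 and 10.83 at 2-d and 10.20, 10.80 and 11.43 at 4-wk on L-P/C-HF. On H-P/C-HF the values were 9.54, 10.33 and 10.70 and then 10.41, 10.84 and 11.07. This was the member with the widest overlap among those that rose, although all 4-wk mice were above the 2-d median. The differences were 0.54 (SE 0.11, adjusted p = 0.00113 by limma) and 0.53 (SE 0.12, adjusted p = 0.00206) for this probe set, and 0.74 (SE 0.09, adjusted p = 1.17e-07) and 0.73 (SE 0.09, adjusted p = 4.17e-07) for the dimmer one.

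Dcn, the collagen-binding proteoglycan decorin, is the brightest of the members. In L-P/C-HF mice its levels ran from 10.83 over a mean of 11.36 to 12.04 at 2-d and from 11.68 over 11.98 to 12.22 at 4-wk. In H-P/C-HF mice they ran from 10.83 over 11.31 to 11.64 and from 11.47 over 11.97 to 12.15. The overlap came from array A01 on L-P/C-HF, at 12.04, and from the lowest 4-wk mouse on H-P/C-HF. Dcn rose by 0.62 (SE 0.09, 1.54-fold, adjusted p = 2.52e-06 by limma) and by 0.66 (SE 0.09, 1.58-fold, adjusted p = 2.23e-06). The dim second Dcn probe set, at a mean level of 5.82, differed by -0.01 (SE 0.05) and 0.02 (SE 0.06).

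Lum, the related proteoglycan lumican, had the largest difference of the members in both diets. On L-P/C-HF its levels went from 6.66, 7.20 and 7.63 (lowest, median and highest) at 2-d to 7.70, 8.18 and 8.97 at 4-wk. On H-P/C-HF they went from 6.97, 7.20 and 7.40 to 7.36, 8.06 and 8.41. The L-P/C-HF groups did not overlap, which was the case with a higher 4-wk group for 0.0377% of all probe sets, and on H-P/C-HF the lowest 4-wk mouse fell just under the highest 2-d mouse. Lum rose by 1.03 (SE 0.11, 2.04-fold, adjusted p = 4.61e-09 by limma) and by 0.87 (SE 0.11, 1.83-fold, adjusted p = 5.56e-07).

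Dcn and Lum are neighbours on chromosome 10 of GRCm38.p6, at chr10:97479500-97518163 and chr10:97565501-97572703, with 47337 bases between them. The next genes in this proteoglycan cluster are Kera (keratocan) and Epyc (epiphycan). Kera differed by -0.09 (SE 0.08) and -0.06 (SE 0.08) with duration, and Epyc by -0.04 (SE 0.05) and -0.01 (SE 0.05), and neither was called. Of 10 other small leucine-rich proteoglycans measured, 2 rose in both diets. They were Bgn (biglycan), by 0.63 and 0.69, and Prelp, by 0.78 and 0.85.

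The other 4 members were not called in either diet. The receptor gene Pdgfrb differed by 0.14 (95% confidence interval -0.02 to 0.29) in L-P/C-HF and 0.14 (-0.01 to 0.30) in H-P/C-HF mice (limma adjusted p = 0.376 and 0.332). Timp1, the metalloproteinase inhibitor, had differences of 0.08 (-0.06 to 0.23) and -0.05 (-0.20 to 0.10). Its levels ran from 6.33 to 6.92 and from 6.39 to 7.10 in the 2-d and 4-wk mice on L-P/C-HF. On H-P/C-HF they ran from 6.45 to 6.96 and from 6.36 to 7.01, so that the durations overlapped widely. The mean levels of Pdgfrb (6.86) and Timp1 (6.66) lay near the median of 6.79 over all probe sets. By the brightest probe sets, those of the 6 genes that rose ran from 7.65 (Lum) to 11.66 (Dcn). A rise may be harder to see in dimmer probe sets, which was not tested.

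Acta2, the smooth muscle actin, ran from 8.32 over a median of 8.55 to 9.17 at 2-d and from 8.16 over 8.62 to 9.18 at 4-wk in L-P/C-HF mice. In H-P/C-HF mice it ran from 8.38 over 8.66 to 8.97 and from 8.21 over 8.54 to 9.03. The 4-wk mice covered the whole range of the 2-d mice in both diets. The differences were 0.02 (95% confidence interval -0.17 to 0.22) and -0.09 (-0.29 to 0.10). In the fit of the 4 groups alone, these intervals exclude a rise as large as the point estimate for any of the 6 called members. The 2 dimmer Acta2 probe sets stayed between -0.06 and 0.03.

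Des, the intermediate filament protein, had lowest, median and highest levels of 6.99, 7.45 and 7.82 at 2-d and 7.0, 7.48 and 8.0 at 4-wk on L-P/C-HF. On H-P/C-HF they were 7.14, 7.49 and 7.91 and then 6.74, 7.40 and 7.73. The groups overlapped over most of their range. Differences were 0.09 (95% confidence interval -0.14 to 0.33) and -0.19 (-0.42 to 0.05), and the second probe set gave 0.05 (-0.08 to 0.18) and 0.11 (-0.02 to 0.25). The 2 Des probe sets did not vary together, with a correlation of their deviations from the group means of -0.37 over 47 mice, so a Des level from this array depends on the probe set read.

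**Figure D2:**
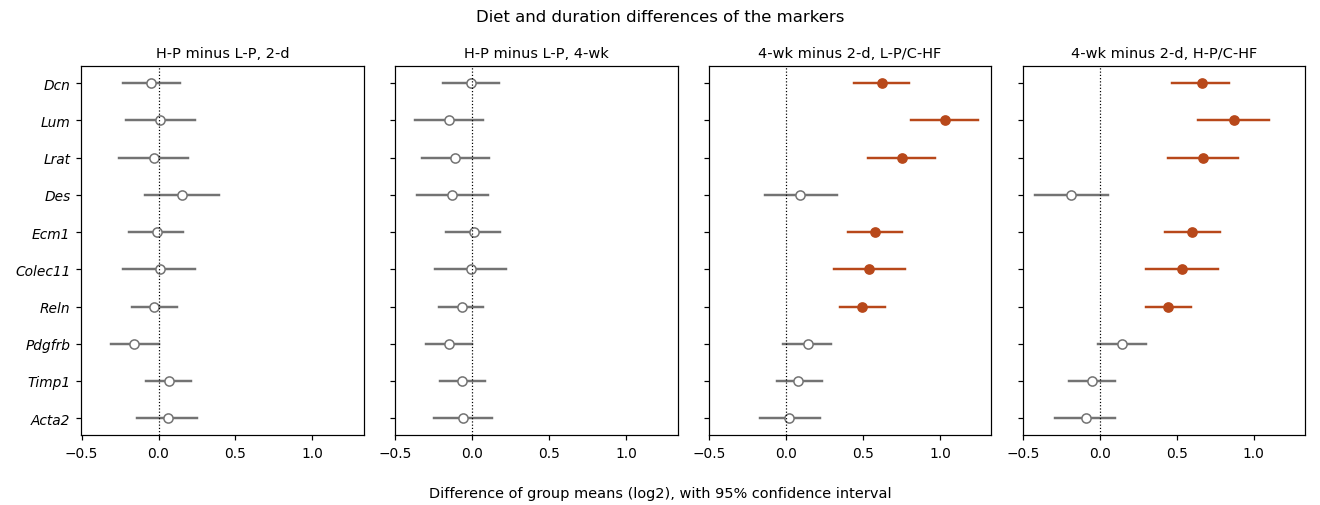
Difference of group means (log2, dots) with 95% confidence interval (lines) for the brightest probe set of each marker, by diet at each duration (left pair) and by duration in each diet (right pair); filled dots passed an adjusted p of 0.05. No diet difference passed, and the same 6 genes passed by duration in both diets.

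RNA quality moved with duration and was measured through the control probe sets of Gapdh and beta-actin, as the mean of their 3′ minus 5′ signal, which grows as RNA is degraded. By group the covariate averaged 0.48 ± 0.19 (SD over 12 mice) in L-P/C-HF 2-d, 0.48 ± 0.13 (n = 11) in H-P/C-HF 2-d, 0.24 ± 0.07 (n = 12) in L-P/C-HF 4-wk and 0.27 ± 0.11 (n = 12) in H-P/C-HF 4-wk mice. It was lower at 4-wk by 0.23 in L-P/C-HF (two-sided permutation test, p = 5e-05, adjusted over 4 comparisons 0.0002). In H-P/C-HF mice it dropped by 0.20 (permutation p = 0.00043, adjusted 0.00086). Between the diets the permutation p was 0.995 at 2-d and 0.439 at 4-wk.

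With this covariate in the model, 7 of 18 member probe sets still rose in each diet, while the calls over all probe sets went from 6.87% to 1.03% in L-P/C-HF and from 6.69% to 1.38% in H-P/C-HF, in either direction. The 6 genes kept their call. The differences were 0.67 and 0.60 for Lrat, 0.52 and 0.47 for Reln, and 0.63 and 0.64 for Ecm1. They were 0.55 and 0.54 for Colec11, 0.61 and 0.65 for Dcn, and 0.88 and 0.73 for Lum. The uncalled Pdgfrb differed by 0.19 and 0.19 (limma unadjusted p = 0.0417 and 0.0383, adjusted p = 0.618 and 0.472). Also uncalled were Acta2 (0.16 and 0.03), Des (0.15 and -0.13) and Timp1 (-0.02 and -0.14). The probe set that lost its call was the dimmer one of Lrat. Within groups, 1 of 18 member probe sets had a slope on the covariate that passed, against 9.35% of all probe sets. It was the same dim Lrat probe set at -0.70 log2 per unit (SE 0.21, adjusted p = 0.0251 by limma). By the brightest probe sets, Pearson's r of the 6 genes with the covariate lay between -0.30 (Lum) and 0.12 (Ecm1) over 47 mice. Without A01 and B36 it lay between -0.38 (Dcn, from -0.02) and -0.10 (Reln, from 0.08), with -0.23 for Ecm1. Colec11 went from 0.02 to -0.20. The relations of Dcn, Ecm1, Colec11 and Reln to the covariate thus depended on these 2 mice, which were part of the covariate fit above. For Dcn r was 0.15 among 2-d mice and -0.46 among 4-wk mice.

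Only few mice of the 2 durations shared a range of RNA quality. Between 0.29 and 0.39 lay 5 of the 2-d and 2 of the 4-wk mice on L-P/C-HF, and between 0.33 and 0.51 lay 8 and 4 on H-P/C-HF. Among these mice the differences were 0.76 and 0.59 for Lrat, 0.55 and 0.42 for Reln, 0.53 and 0.54 for Ecm1, 0.78 and 0.37 for Colec11, 0.63 and 0.51 for Dcn, and 1.08 and 0.65 for Lum. With these fewer mice 0 members passed the adjusted threshold in either diet, where 0% and 0.0466% of all probe sets did, and 7 were higher in each diet at an unadjusted p under 0.05, where 1.13% and 2.26% of all were. The part of RNA quality in the duration difference was not tested beyond these fits.

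**Figure D3:**
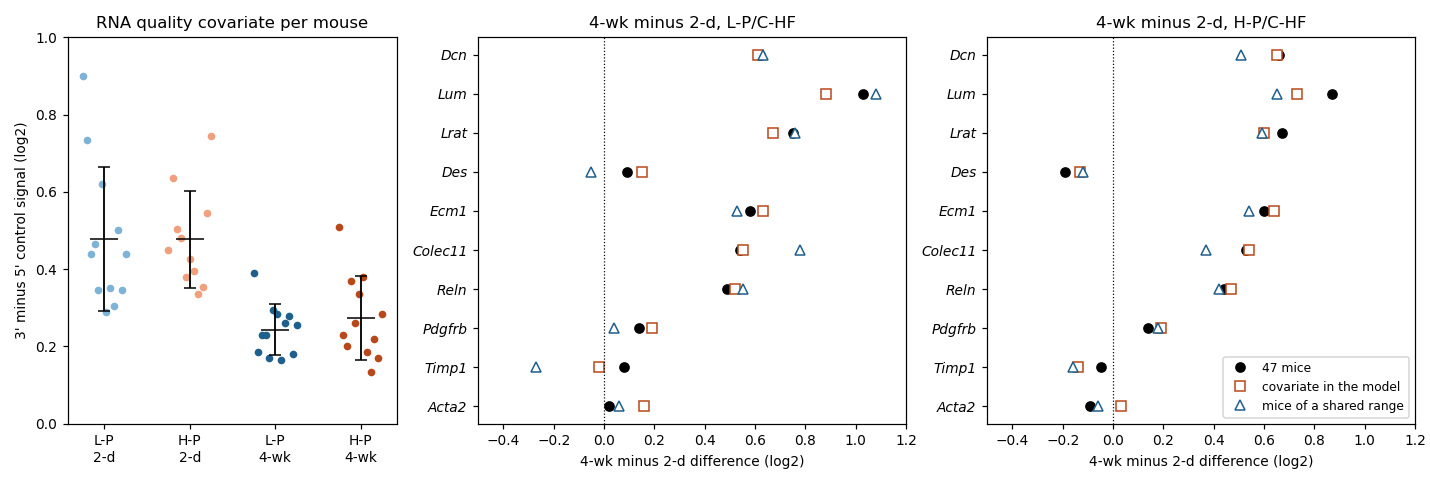
Left, RNA quality covariate (3′ minus 5′ control signal, log2) of 47 mice by group, with mean and 1 SD; middle and right, 4-wk minus 2-d difference (log2) of each marker in all 47 mice, with the covariate in the model and in the mice of a shared covariate range. The covariate is lower at 4-wk, and the 6 markers that rose stay at 0.37 or above in each of the 3 settings.

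Other genes known from stellate cells rose in part. Of 24 such genes measured (25 listed), 13 rose and 0 fell in each diet, with a list median of 0.25 in L-P/C-HF and 0.33 in H-P/C-HF mice. Over all genes 4.76% and 4.16% rose. Among them, Hgf, the hepatocyte growth factor, rose by 0.82 and 0.68, Rgs5, a regulator of G protein signalling found in pericytes, by 0.81 and 0.72, and Vim (vimentin) by 0.93 and 0.88. Sparc, a collagen-binding matrix protein, rose by 0.86 and 0.75 and Timp3, another metalloproteinase inhibitor, by 0.81 and 0.75. Tcf21, a mesenchymal transcription factor, rose by 0.38 and 0.54, and Bmp5 by 0.41 and 0.44. Fbln5 rose by 0.51 and 0.45, Angptl6 by 0.49 and 0.37, Ifitm1 by 0.36 and 0.40 and Ngfr by 0.24 and 0.32. Lhx2 was called in L-P/C-HF mice alone (0.27 and 0.12) and Pth1r in H-P/C-HF mice alone (0.22 and 0.34), and Bgn is given above. In the other direction, 3 genes in each diet had differences of -0.01 or lower, and 1 on L-P/C-HF and 2 on H-P/C-HF were lower at an unadjusted p under 0.05. The lowest was Steap4, a metalloreductase, at -0.48 (SE 0.17, limma adjusted p = 0.0906) and -0.38 (SE 0.18, adjusted p = 0.228).

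Genes of the TGF-beta and PDGF pathways rose in part, with 7 of 17 in L-P/C-HF and 5 of 17 in H-P/C-HF mice (medians 0.04 and 0.10). The ligand Tgfb1 rose by 0.60 and 0.53 and the co-receptor Tgfbr3 by 0.52 and 0.42. Pdgfra, the receptor paralogous to Pdgfrb, rose by 0.29 and 0.33, and Ccn2, a TGF-beta target also called connective tissue growth factor, by 0.87 and 0.96. Smad2, a signal transducer of TGF-beta, rose by 0.36 and 0.34. Tgfbr2 (0.36 and 0.14) and the decoy receptor Bambi (0.20 and 0.15) were called in L-P/C-HF mice alone. No gene of this list fell.

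Fibrillar collagens and the enzymes that process them were mostly not called, with 2 of 13 rising in L-P/C-HF and 1 of 13 in H-P/C-HF mice (medians 0.04 and 0.07). Col3a1, the chain of collagen type III, rose by 0.52 and 0.60, and Col1a2 of collagen type I rose by 0.34 on L-P/C-HF and differed by 0.23 on H-P/C-HF (adjusted p = 0.0539 by limma). Of 13 genes of retinoid storage and action other than Lrat, 0 rose in either diet. Rdh5, a retinol dehydrogenase, fell by 0.51 in H-P/C-HF mice and differed by -0.21 in L-P/C-HF mice.

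Markers of the other mesenchymal cells were mostly not called. Of 10 portal fibroblast markers 1 rose in each diet, Dpt (dermatopontin), by 0.51 and 0.50. The mean level of this list per mouse lay between 6.89 and 7.22 at 2-d and between 6.96 and 7.39 at 4-wk on L-P/C-HF, and between 6.92 and 7.13 and between 6.95 and 7.29 on H-P/C-HF. Of 10 smooth muscle markers 3 rose on L-P/C-HF and 0 on H-P/C-HF, where 1 fell. Tagln (transgelin) rose by 0.49 on L-P/C-HF and differed by 0.37 on H-P/C-HF, and Myl9 (0.30 and 0.23) and Smtn (0.27 and 0.15) were likewise called on L-P/C-HF alone. Mylk, the myosin light chain kinase, fell by 0.26 on H-P/C-HF and differed by -0.11 on L-P/C-HF. Mesothelial markers numbered 8, and 0 were called.

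The rise was not restricted to stellate cell genes. Of 12 Kupffer cell markers, 11 rose on L-P/C-HF and 9 on H-P/C-HF (medians 1.02 and 0.84). The complement genes C1qa, C1qb and C1qc rose by 1.19 and 1.02, 1.65 and 1.47, and 1.12 and 0.97, and Vsig4, Cd68 and Cd5l by 1.25 and 1.07, 1.15 and 0.95, and 1.11 and 0.91. Timd4 rose by 0.93 and 0.67, Clec4f by 0.89 and 0.77 and Csf1r by 0.49 and 0.43, whereas Marco (0.76 and 0.22) and Adgre1 (0.65 and 0.38) were called on L-P/C-HF alone. Of 10 sinusoidal endothelial markers 8 and 9 rose, with medians of 0.56 and 0.47. They were Pecam1 (1.40 and 1.12), Oit3 (1.28 and 1.17), Clec4g (0.98 and 1.0), Fcgr2b (0.66 and 0.47), Kdr (0.59 and 0.47), Stab2 (0.54 and 0.42), Ehd3 (0.49 and 0.31) and Stab1 (0.43 and 0.47), with Lyve1 (0.30 and 0.36) called on H-P/C-HF alone. The mean level of the Kupffer cell list ran from 7.98 to 9.16 at 2-d and from 8.79 to 10.19 at 4-wk on L-P/C-HF, and from 8.04 to 8.88 and from 8.14 to 9.69 on H-P/C-HF. That of the endothelial list ran from 8.16 to 8.90 and from 8.38 to 9.30 on L-P/C-HF, and from 8.16 to 8.71 and from 8.34 to 9.27 on H-P/C-HF. Of 12 hepatocyte markers 0 rose and 1, the transcription factor Hnf4a, fell by 0.29 and 0.30. Their list mean lay between 12.95 and 13.35 at 2-d and between 13.03 and 13.23 at 4-wk on L-P/C-HF. On H-P/C-HF it lay between 13.13 and 13.37 and between 13.09 and 13.23, with group means of 13.26 and 13.14. At an unadjusted p under 0.05, 3 of the 12 hepatocyte markers were lower and 0 higher on L-P/C-HF. On H-P/C-HF 4 were lower and 1 was higher. Of all 18193 genes, 950 were lower and 1929 higher at that threshold on L-P/C-HF, and 1410 were lower and 1774 higher on H-P/C-HF. None of the cholangiocyte, adipocyte and skeletal muscle markers was called. The part of these other cell types in the member differences was not tested.

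**Figure D4:**
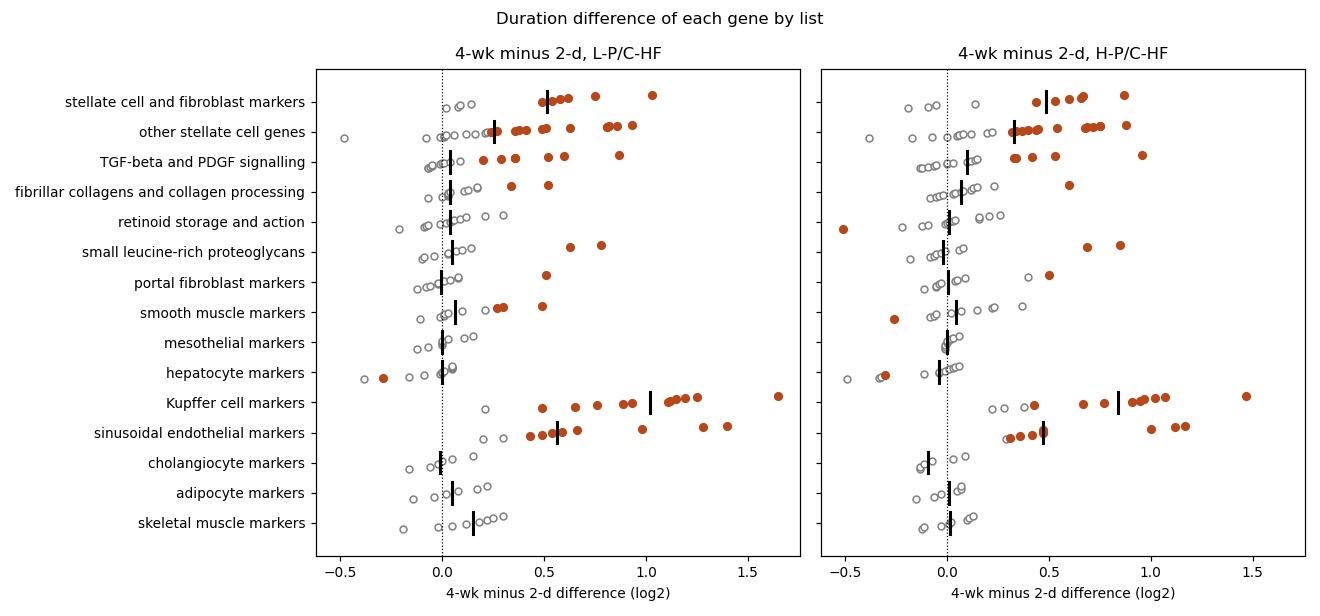
4-wk minus 2-d difference (log2) of every gene of 15 lists, through its brightest probe set, in L-P/C-HF (left) and H-P/C-HF mice (right); filled dots passed an adjusted p of 0.05 over all probe sets and the bar is the median of the list. The medians of the stellate, Kupffer and endothelial lists lie between 0.25 and 1.02.

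Within groups, several of the markers varied together from mouse to mouse. Genes on one array share its RNA quality and normalization, so a correlation does not show that genes share a cell type. Deviations from the group means over 47 mice were compared with those of Dcn for the other 9 members, and 4 of 9 had a slope on Dcn that passed the limma test over all probe sets, against 0.677% of all probe sets. Ecm1 was the most like Dcn, with Pearson's r = 0.90 and Spearman's rho = 0.80 (permutation p = 1e-05 for each, the smallest that 100000 resamples can give, and limma adjusted p = 4.69e-11). Without the 2 mice whose Dcn deviation lay farthest from the median, A01 and A06, r was 0.86.

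Reln followed, with r = 0.75 and rho = 0.66 (permutation p = 1e-05 for each, limma adjusted p = 8.72e-05) and r = 0.73 without these 2 mice. For Colec11 r was 0.64 (permutation p = 1e-05) and rho 0.54 (permutation p = 0.00019), and r was 0.61 without them. For Lrat r was 0.55 (permutation p = 0.00016) and rho 0.46 (permutation p = 0.00118), with r = 0.64 without them. The limma adjusted p was 0.00172 for Colec11 and 0.0267 for Lrat. These 4 relations were present within the 23 mice at 2-d, with r between 0.47 and 0.93, and within the 24 mice at 4-wk, with r between 0.69 and 0.83.

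Lum, the chromosomal neighbour of Dcn, did not pass this test. Its r with Dcn was 0.20 (permutation p = 0.168) and rho 0.25 (permutation p = 0.0944), and r was 0.47 without A01 and A06. Among 2-d mice r was -0.17 and among 4-wk mice 0.67. Pdgfrb showed the opposite order, with 0.73 at 2-d and -0.08 at 4-wk. Its r over 47 mice was 0.44 (permutation p = 0.00252) and rho 0.35 (permutation p = 0.016), with r = 0.27 without A01 and A06, and its limma adjusted p over all probe sets was 0.11. The difference of these correlations between durations was not tested.

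By their brightest probe sets, Des, Timp1 and Acta2 did not follow Dcn. Their r with Dcn was -0.18 (permutation p = 0.242), -0.08 (permutation p = 0.575) and -0.16 (permutation p = 0.292), with rho of -0.15, -0.05 and -0.11 (permutation p = 0.31, 0.744 and 0.46). The brightest Des probe set ran against the brighter Colec11 one (r = -0.68 over 47 mice, as a description). With the dimmer Colec11 probe set its r was -0.33. The second Des probe set had r = 0.32 with the brighter Colec11 one and r = 0.30 with Dcn. These relations of Des therefore depend on the probe set read.

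**Figure D5:**
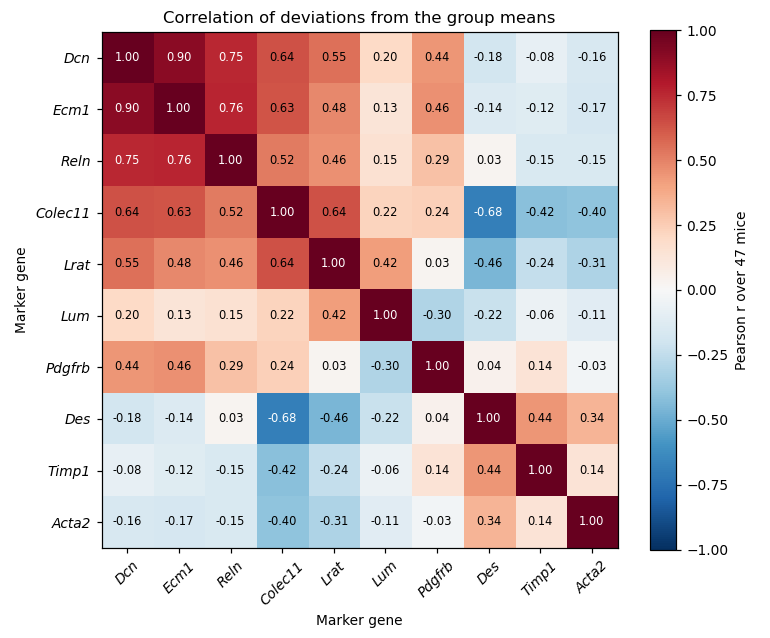
Pearson r between the brightest probe sets of the 10 markers over 47 mice, each level taken as its deviation from the group mean (blue negative, red positive). Dcn, Ecm1, Reln, Colec11 and Lrat form a block with r between 0.46 and 0.90, and Des, Timp1 and Acta2 lie outside it.

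The genes outside the members whose deviations were most like each member, over 47 mice and by the brightest probe set of each gene, are given as a description. For Dcn they were Igfbp7 (r = 0.81), Sparc (0.80) and Plvap (0.78). Igfbp7, an IGF-binding protein of vessels and stroma, also led for Ecm1 (r = 0.80) and Reln (r = 0.68), and it rose with duration by 1.26 and 1.25. Vipr1 (0.75) and Plvap (0.73) followed for Ecm1, and Mamdc2 and Col14a1 (0.67 each) for Reln. For Lrat the first was Colec10 (r = 0.73), the collectin paralogous to Colec11, followed by Ptprb (0.70) and Tcf21 (0.69). Colec11 itself was most like Tmem204 (r = 0.90), Bmp5 (0.88) and Plvap (0.85), a protein of fenestrated endothelium.

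Lum was most like Trim35 (r = 0.73), its fellow proteoglycan Prelp (0.68) and the endothelial transcription factor Sox18 (0.67). The brightest Des probe set had Ksr1 (r = 0.94), Stxbp4 (0.91) and Il12rb2 (0.90) as its closest genes, and none of these was called by duration. Those closest to Pdgfrb (Tmem151b at 0.74, Itsn2 at 0.73 and Clgn at 0.70), Timp1 (Hoxc5 at 0.69, Ccdc40 at 0.67 and Fut1 at 0.66) and Acta2 (Alx1 and Col5a3 at 0.63 and AI504432 at 0.62) were likewise not called by duration.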

How the data were processed

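Liver RNA was measured on Affymetrix mouse expression arrays. The authors normalized the data by RMA and deposited log2 values with 2 decimals. The log base follows from the span of values. Mice labelled HPHC were taken as H-P/C-HF and those labelled HFHC as L-P/C-HF, which is an inference from the abbreviations. RMA equalizes the distribution of signal between arrays, so a change shared by most genes would not be seen. Genes were named through GEO's platform annotation, which gives 1 symbol to 34945 probe sets, several to 932 and none to 9160. The 64 control probe sets were left out of the tests.

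A model with 1 mean per group was fitted over all probe sets with limma 3.58.1 in R 4.3.3 (eBayes with a trend, two-sided, Benjamini-Hochberg within each comparison). Lists were read through the brightest probe set of each gene. RNA quality was the mean 3′ minus 5′ signal of 2 control genes. Permutation tests used 100000 resamples. The procedure was tested on simulated data. Alternatives were a fit with B25, a fit without A01, A09 and A24, array weights, median centring, cyclic loess, brighter probe sets alone, separate fits, eBayes without a trend, the RNA quality covariate, the replicate number as a block and one-way ANOVA. The Global Error Assessment of the study was not used here.

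The members and lists were chosen with earlier results of these data known. Named genes were the members, up to 3 genes of each list with the smallest p over the 2 diet comparisons, list genes with an adjusted p under 0.05 in any comparison, and the 3 genes most like each member. Kera and Epyc, as neighbours of Lum, and Steap4 were named after their values were seen.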

Additional observations from a re-analysis of the deposited data

How the results depend on the processing

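The 6 members that rose with duration stayed called under all 11 alternatives that had been planned, in both diets. Their differences ranged over 0.59 to 0.72 for Dcn, 0.73 to 1.03 for Lum, 0.60 to 0.83 for Lrat, 0.55 to 0.65 for Ecm1, 0.50 to 0.64 for Colec11 and 0.41 to 0.52 for Reln. The alternative chosen after the data were examined, mice of a shared RNA quality range, brought the count of called member probe sets from 8 to 0 in each diet, with fewer mice in the fit. The count of slopes on the RNA quality covariate went from 1 to 0 without A01, A09 and A24, with the Gapdh control alone and with the replicate block. The diet difference of the covariate at 2-d was 0.0021 with B25 included.

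The replicate numbers did not pair the mice. Over 69 pairs with the same number, r of their deviations lay between -0.62 and 0.60, and 3 of 47 arrays correlated best with their own number. With the replicate number as a block, 0 member probe sets were called by diet at either duration, against 0.00222% and 0.00444% of all probe sets. By duration 8 were called in each diet, against 7.17% and 8.51%.

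Some uncalled differences changed sign. At 2-d the diet difference became 0.01 for Dcn and 0.02 for Ecm1 without A01, A09 and A24. It became -0.06 for Colec11 with B25 included, -0.00053 for Lum and -0.01 for Colec11 with array weights, -0.0048 for Colec11 with median centring and -0.01 for Lum with the block. At 4-wk it became -0.02 for Ecm1 without A01, A09 and A24, -0.04 with array weights and -0.0012 with the covariate. It became 0.0033 for Dcn and 0.0092 for Colec11 with median centring and 0.00031 for Colec11 with cyclic loess. The difference of diet effects became -0.05 for Dcn and -0.04 for Ecm1 without those arrays, 0.06 for Colec11 with B25 included, 0.01 for Colec11 with median centring and -0.00094 for Pdgfrb with the covariate. By duration in L-P/C-HF mice, Timp1 became -0.02 with the covariate and -0.27 in the shared range, Des -0.05 in the shared range, and Acta2 -0.02 without those arrays and -0.0041 with array weights. In H-P/C-HF mice Acta2 became 0.03 with the covariate. The cause was not tested. Dim probe sets, and the number of arrays, limit what could be seen.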
